A study of Mus musculus with 26 samples.

Results

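Thalamic relay neurons of the mouse were sorted into classes by whichever of the 3 transcripts Tnnt1, Necab1 and Calb2 was counted most often in the cell, as unique molecular identifiers (UMIs, random tags that mark captured transcripts), and the Calb2 class was compared with the Necab1 class. Calb2 encodes calretinin and Necab1 a neuronal protein, and both products bind calcium. Of 1972 cells, 611 fell in the Calb2 class, 532 in the Necab1 class and 756 in the Tnnt1 class. The other 73 cells had no class, because 54 held no UMI of these genes and 19 were tied. Cells came from male mice with animal ages of 64 to 112 in the deposited table, which gives no unit. Strain and tracer are not named in the labels. Every cell carried a retrograde label, an agent taken up by axon endings and carried back to the cell body, from auditory, motor, prefrontal, somatosensory or visual cortical systems. No treatment or mutation differed between the groups. Living slices were digested with activity blockers present, and fluorescent cells were picked by hand from the thalamus.

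Relay neurons of the thalamus carry signals to the cortex and use glutamate as their transmitter. They switch between tonic and burst firing through a T-type calcium current, and neurons with different projections differ in their ion channels, receptors and synaptic proteins. Calretinin is widely used as a marker of midline and higher-order thalamic territories, and transcription factors such as Tcf7l2, Lef1, Gbx2 and Rora are known from thalamic development.

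UMIs of the Calb2 and Necab1 cells were added up per animal, projection and class where at least 5 cells were present. This gave 18 pairs of sums in which both classes came from the same animal and projection: 5 auditory, 5 motor, 4 prefrontal and 4 visual. The 36 sums held 7 to 72 cells and 553603 to 10063782 UMIs (median 2291293), 1103 cells in all. The balance of the classes differed by projection. Auditory cells comprised 238 of the Calb2 and 49 of the Necab1 class, motor cells 48 and 189, prefrontal cells 175 and 159, and visual cells 145 and 100. Somatosensory cells numbered 5 and 35, which gave no pair. Prefrontal replicates 1 to 4 differed, with 46 and 14, 53 and 14, 62 and 72, and 14 and 59 cells. Of these, replicates 1 and 2 were of sequencing batch 1, replicate 3 of batch 2 and replicate 4 of batch 3. All 4 visual pairs were of batch 3, whereas auditory and motor pairs, like the prefrontal ones, came from batches 1, 2 and 3. The larger class was the same in every auditory, every motor and every visual replicate. Cell numbers per class rest on which labelled cells were picked. Auditory replicate 5 and visual replicate 1 carry the same animal identifier but different sort dates. Of the 18 pairs, 12 shared their sort date with another pair of the same projection, so the spread between pairs may understate the spread between experiments.

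The 3 anchor genes chose the classes and were left out of every test. As a description, Calb2 class cells held a median of 77 Calb2 UMIs and 17 Necab1 UMIs, and Necab1 class cells 40 Necab1 UMIs and 1 Calb2 UMI. The leading anchor had at least 2 times the UMIs of the next in 472 of 611 Calb2 class cells (77.3%) and in 400 of 532 Necab1 class cells (75.2%). In the Necab1 class this share was 92.6% of motor and 75.5% of prefrontal cells, but 54% of visual and 40.8% of auditory cells. Auditory Necab1 class cells held a median of 37 Necab1 and 20 Calb2 UMIs. At the edge of the rule, 19 Calb2 and 27 Necab1 class cells led by 1 UMI, and 13 of the 19 tied cells were ties of Calb2 and Necab1 at a median of 10 UMIs. Motor replicates 1 and 2 stood apart. Their Calb2 class cells had a median of 286634 and 410314 UMIs but only 3.5 and 2 Calb2 UMIs, and their Calb2 level was 39.3 and 10.7 CPM (UMIs per 1e+06 UMIs of the sum, scaled between sums) against 349 to 433 CPM in motor replicates 3, 4 and 5. Without scaling between sums, Calb2 in motor replicate 2 was nearly alike in the Calb2 sum (9.95 CPM) and the Necab1 sum (9.58 CPM). In replicate 1 it was at 36.7 and 9.15 CPM. The class of the Calb2 sums of replicates 1 and 2 therefore rests on very few anchor transcripts. Named genes that lost their call without them are given as such. Some of the authors' clusters held both classes and others almost 1 alone. Auditory cluster Aud_2 held 159 Calb2 and 37 Necab1 class cells, prefrontal clusters Pfr_2 and Pfr_3 held 27 and 95 Calb2 against 99 and 13 Necab1 class cells, and visual cluster Vis_2 held 62 and 59. Cluster Aud_3 held 61 Calb2 and 2 Necab1 class cells, Mot_3 held 8 and 112, and Mot_2 held 1 and 23, so the class difference within a projection is partly one between clusters.

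**Figure D1:**
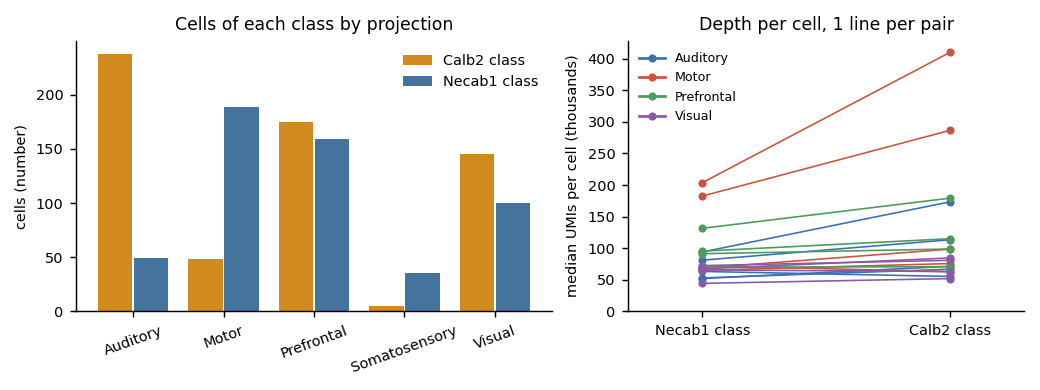
Number of cells of the Calb2 and Necab1 class in each projection (left) and the median number of UMIs per cell in each of the 18 pairs of sums (right, 1 line per pair, coloured by projection). Auditory cells were mostly of the Calb2 class and motor cells mostly of the Necab1 class, and 15 of 18 lines rise towards the Calb2 class.

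Calb2 class cells yielded more RNA than Necab1 class cells of the same animal. Per cell, the median number of UMIs was 119870 ± 93051 in the Calb2 sums and 87353 ± 43464 in the Necab1 sums (mean ± SD, n = 18 pairs). It was higher in the Calb2 class in 15 of 18 pairs, with a mean log2 difference of 0.32 ± 0.33 (SD; exact paired permutation test, two-sided, p = 0.00074). Scaled to the spike-in RNAs added to every cell, the cells held 14.5 ± 5.55 UMIs per spike-in UMI in the Calb2 and 11 ± 3.28 in the Necab1 sums, a log2 difference of 0.36 ± 0.25, higher in 16 of 18 pairs (same exact test, p = 6.87e-05). After each cell was thinned to 20000 UMIs, 3873 ± 323 genes were detected per Calb2 class cell and 3743 ± 333 per Necab1 class cell, again higher in 15 of 18 pairs (exact p = 0.00206). These differences in depth accompany every gene result that follows, and their part in it was not tested.

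Over all projections, the Calb2 class held more RNA of a set of genes that were near or at 0 in many Necab1 sums. Prph, which encodes the intermediate filament protein peripherin, led by fold. Prph ranged from 0 to 490 CPM in the Calb2 sums (median 24.5) and from 0 to 15.2 CPM in the Necab1 sums (median 0.0654). It was higher in the Calb2 class in 14 of 18 pairs, with 4 Calb2 sums at 0. Its log2 fold change was 5.14 ± 0.90 (SE; adjusted p = 0.000468 in edgeR's quasi-likelihood test with animal and projection as block). Lmo1, a LIM-only cofactor of transcription, ranged from 0 to 49.6 CPM (median 21.5) in the Calb2 sums and from 0 to 24.3 CPM in the Necab1 sums, of which 10 were at 0. Lmo1 was higher in 17 of 18 pairs, with a log2 fold change of 4.25 ± 0.76 (adjusted p = 0.000479). Nrgn, the calmodulin-binding protein neurogranin, ranged from 0 to 301 CPM (median 12.2) and from 0 to 57.0 CPM (median 0.870). Nrgn was higher in 14 of 18 pairs, with a log2 fold change of 3.52 ± 0.60 (adjusted p = 0.000313).

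Gpx3, a secreted glutathione peroxidase, had a median of 13.8 CPM against 0.206 CPM and a log2 fold change of 3.4 ± 0.66. The 8 other genes with the largest folds upwards had log2 fold changes of 3.06 (Gnb4, a G protein beta subunit), 3.04 (Caln1, a calmodulin-like protein), 3.02 (Fxyd6, a regulator of the sodium pump), 2.69 (Rgs10, which shortens G protein signals), 2.57 (Ctxn1, a small neuronal membrane protein), 2.51 (Alcam, a cell adhesion molecule), 2.48 (Crip2, a LIM domain protein) and 2.41 (Syt10, a synaptotagmin). Each of these 8 had at least 1 Calb2 sum at 0, and their Calb2 and Necab1 ranges overlapped. Crip2, with medians of 55.2 and 11.3 CPM, was higher in 15 of 18 pairs. Without motor replicates 1 and 2, Prph had a log2 fold change of 5.72 and Lmo1 of 4.84, and Caln1 no longer passed (2.88, adjusted p = 0.0539); Nrgn then fell under the filter on low counts and was not tested. With the length trend removed, Syt10 missed the threshold (2.03, adjusted p = 0.105). Of the alternative settings that tested each gene, Caln1 missed the threshold in 12 of 26, with values of 0.34 to 3.44. Syt10 missed it in 10 of 32.

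Genes lower in the Calb2 class differed by smaller folds, and 7 of the 12 largest were detected in all 36 sums. Rreb1, a zinc finger transcription factor, ranged from 4.33 to 103 CPM in the Calb2 sums (median 21.8) and from 25.3 to 192 CPM in the Necab1 sums (median 65.2). It was lower in 17 of 18 pairs, with a log2 fold change of -1.89 ± 0.32 (adjusted p = 0.000288). Endou, an endoribonuclease, had medians of 18.8 and 59.7 CPM and was also lower in 17 of 18 pairs (-1.63 ± 0.28, adjusted p = 0.000328). Grin2c, an NMDA receptor subunit, had a median of 35.1 CPM (2.09 to 130) against 83.3 CPM (39.4 to 341), and was lower in 16 of 18 pairs (-1.51 ± 0.26, adjusted p = 0.000305). Shisa6, an auxiliary subunit of AMPA receptors, had medians of 15.4 and 41.6 CPM and was lower in 16 of 18 pairs (-1.77 ± 0.42). The remaining 8 of the 12 genes with the largest folds downwards were Fgd3 (-2.65), Myo5c (-2.16), Mbd4 (-1.86), Col25a1 (-1.58), Fam163a (-1.58), Ksr1 (-1.57), Manba (-1.57) and Vipr2 (-1.45), with adjusted p-values of 0.00309 to 0.0449. They include a myosin (Myo5c), a DNA glycosylase (Mbd4), a membrane collagen (Col25a1), a scaffold of MAP kinase signalling (Ksr1), a lysosomal mannosidase (Manba) and a receptor for vasoactive intestinal peptide (Vipr2). Without motor replicates 1 and 2, Myo5c, Mbd4, Fam163a and Vipr2 kept their direction but had adjusted p-values of 0.0746 to 0.107. After removal of the length trend, Myo5c (-1.99, adjusted p = 0.104) and Fam163a (-1.58 in both fits, adjusted p = 0.0763) missed the threshold. Among all alternative settings that tested them, Myo5c missed it in 21 of 34, Fam163a in 20 of 34, Mbd4 in 16 of 34 and Vipr2 in 16 of 35.

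**Figure D2:**
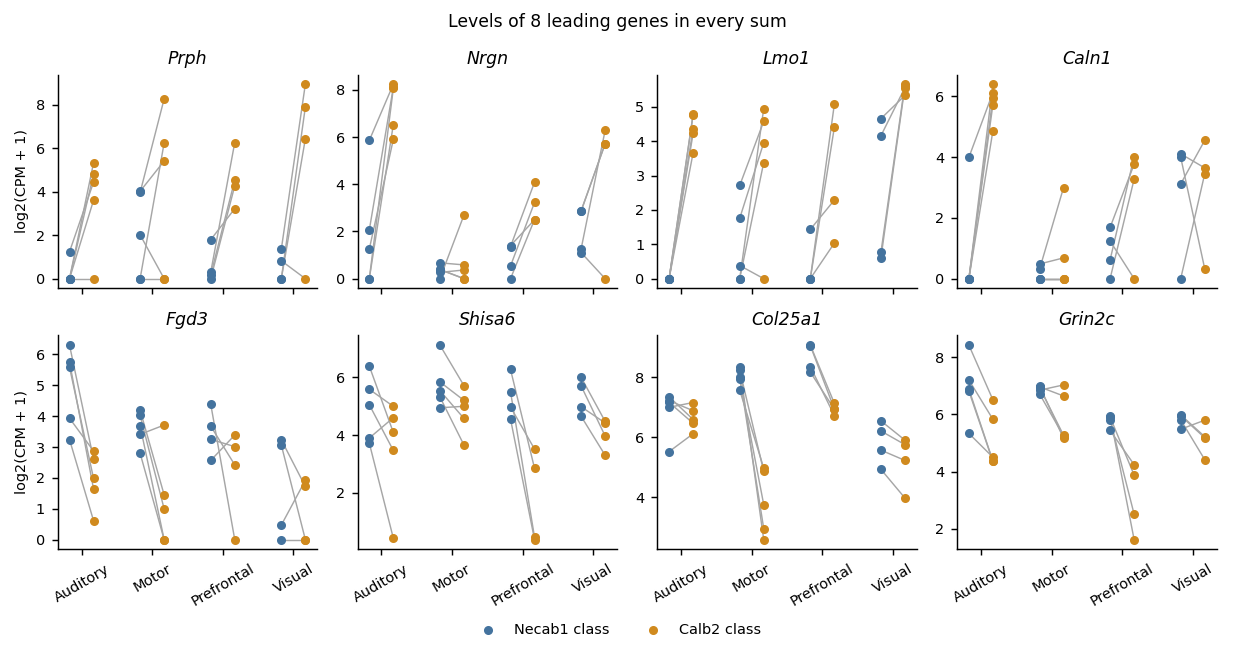
Levels of 4 genes higher and 4 genes lower in the Calb2 class, as log2(CPM + 1) in every sum, by projection, with a line for each pair (blue Necab1 class, orange Calb2 class). Nrgn lines rise in all 5 auditory pairs and stay low in motor pairs, and Col25a1 lines fall steeply in all 5 motor pairs.

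Of 11025 genes tested, 1346 passed an adjusted p of 0.05 (12.2%), 780 higher (7.07%) and 566 lower (5.13%) in the Calb2 class. Most differences were modest: 89 of the higher and 56 of the lower genes differed at least 2-fold, and the median log2 fold change was 0.57 among the higher and -0.58 among the lower genes. The median of all genes tested was 0.04. Of the 1346 genes, 1017 had the same direction in at least 15 of 18 pairs and 81 in all 18. The direction was shared by all 4 projections in 1261 and by 3 in 85. Agreement across pairs and projections is raised by the choice of these genes on the same sums. Sequencing batch 1 alone, with 6 pairs, gave 2 calls, batch 2 alone, with 4 pairs, 1 call, and batch 3 alone, with 8 pairs, 203 calls; 1335 of 1338, 1333 of 1338 and 1336 of 1336 of the genes called over all batches had the same direction there, a share raised by the choice of these genes on the same sums. Without motor replicates 1 and 2, 1340 genes passed, and 1160 of them were among the 1346.

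The differences followed transcript length. Genes called higher in the Calb2 class had a median longest transcript of 1874 bases and genes called lower one of 5585 bases, against 3465 bases over all genes tested (lengths from GENCODE vM21, found for 98.1% of the genes tested). In the 25% of genes with the shortest transcripts, 482 were higher and 29 lower, with a median log2 fold change of 0.34. In the 25% with the longest, 29 were higher and 328 lower, with a median of -0.24. The gradient was as steep after each cell had been thinned to 20000 UMIs (0.35 and -0.26), and it was present within each projection: the shortest exceeded the longest by medians of 0.55 against 0.03 in auditory, 0.11 against -0.39 in motor, 0.42 against -0.33 in prefrontal and 0.32 against -0.21 in visual sums. A fit added after seeing this, in which the length trend of each sum was taken out, called 536 genes (230 higher, 306 lower), so 42.9% of the calls were higher in place of 57.9%. Of the 536, 433 were among the 1346. The abundant RNAs Malat1, Meg3 and Snhg11, named after their values were seen, were lower in the Calb2 class (-0.21, -0.36 and -0.41), in 16, 17 and 18 of 18 pairs. So were the mitochondrial ribosomal RNAs mt-Rnr1 and mt-Rnr2 (-0.34 and -0.34), whose transcripts are short. By projection, mt-Rnr1 and mt-Rnr2 differed most in motor sums (-0.80 and -0.79). They stood at -0.12 and -0.09 in auditory, -0.25 and -0.20 in prefrontal and -0.11 and -0.23 in visual sums. In edgeR's test of the difference between projections, mt-Rnr2 passed (adjusted p = 0.0327) and mt-Rnr1 did not (0.406). With the length trend removed, Malat1 stood at -0.014 and Meg3 at -0.024 and neither passed, Snhg11 passed at -0.26 (adjusted p = 0.033), and mt-Rnr1 and mt-Rnr2 moved further down, to -0.71 and -0.69. The part that RNA yield plays in this gradient was not tested. Counts of most lists below are therefore followed by the counts with the length trend removed. As a reference, 7.07% of all 11025 genes tested were higher and 5.13% lower in the Calb2 class. With the length trend removed, 230 of 11025 were higher and 306 lower.

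**Figure D3:**
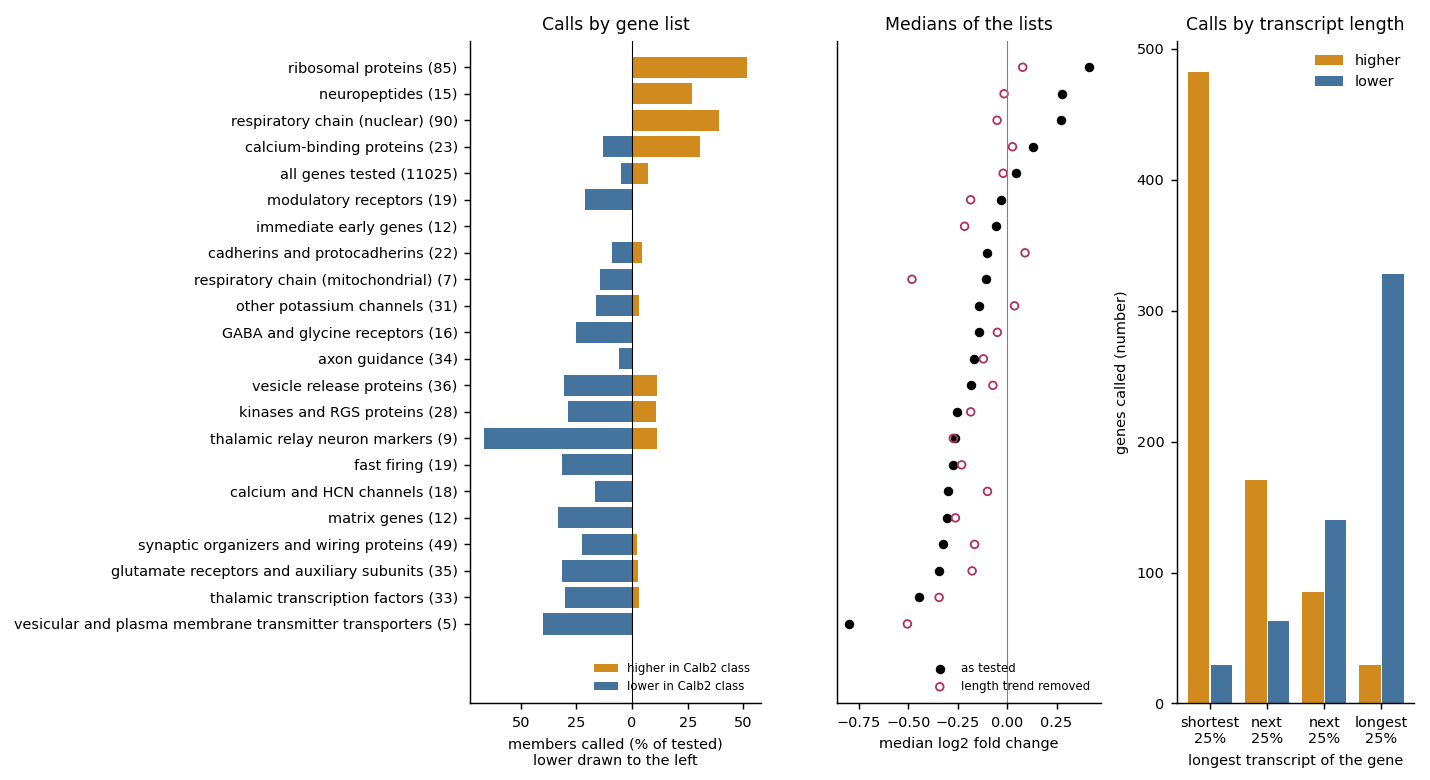
Share of the tested members of each gene list that were called higher (orange, to the right) or lower (blue, to the left) in the Calb2 class, with the number tested in brackets (left), the median log2 fold change of each list as tested and with the length trend removed (middle), and the number of genes called in 4 equal groups of transcript length (right). Ribosomal and nuclear respiratory genes stand at the top as tested, and their medians move to 0.08 and -0.05 with the length trend removed, whereas thalamic transcription factors stay at -0.34.

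Of 33 transcription factors of the thalamus tested, 1 was higher and 10 were lower in the Calb2 class, with a list median of -0.45, and 22 were not called. After removal of the length trend, 1 was higher and 7 were lower (median -0.34). Rora, a nuclear receptor of relay neurons, ranged from 587 to 1619 CPM (median 1093) in the Calb2 sums and from 1104 to 2842 CPM (median 1572) in the Necab1 sums. The ranges overlapped, yet Rora was lower in 17 of 18 pairs (-0.67 ± 0.08, adjusted p = 8.86e-06). Prox1, a homeobox factor (-1.04 ± 0.22), and Zfhx3, a zinc finger homeobox factor (-0.89 ± 0.14), were lower in 17 of 18 pairs each, and Lef1, an effector of Wnt signalling, in 16 (-0.75 ± 0.16). Rora, Prox1, Zfhx3 and Lef1 passed with the length trend removed too (-0.39, -0.82, -0.52 and -0.78), and Zic1 (-0.52, then -0.38, adjusted p = 0.134) and Tcf7l2 (-0.25, then -0.27, adjusted p = 0.0578) did not. Pou2f2, a POU factor, was the member that was higher, with medians of 23 and 9.68 CPM (1.14 ± 0.38, 15 of 18 pairs, adjusted p = 0.0472). It missed the threshold in 23 of 35 alternatives, with values of 0.18 to 2.00. Gbx2, a homeobox gene of the early thalamus, had means of 183 ± 128 and 166 ± 103 CPM and no detectable difference (0.03 ± 0.17).

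Of 35 glutamate receptor genes and auxiliary subunits tested, 1 was higher and 11 were lower (median -0.35), and with the length trend removed 1 was higher and 5 were lower (median -0.18). The lower genes held subunits of AMPA receptors (Gria1 -0.80, Gria3 -0.85, Gria4 -0.57) and subunits of NMDA receptors (Grin1 -0.35, Grin2a -0.54, Grin2b -0.45 and Grin2c). With the length trend removed, Gria1 (-0.68) and Gria3 (-0.74) passed, as did Grin2c (-1.44) and Shisa6 (-1.56). Grin1 (-0.31, adjusted p = 0.0751) and Gria4 (-0.45, adjusted p = 0.102) missed the threshold at a similar size, and Grin2a and Grin2b fell short at -0.20 and -0.03. Grik1, a kainate receptor subunit, went the other way and kept its call (1.47). Its median was 54.8 CPM (3.18 to 152) in the Calb2 sums and 15.2 CPM (0.819 to 55.6) in the Necab1 sums, and it was higher in 16 of 18 pairs (1.5 ± 0.36, adjusted p = 0.00567).

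Genes of fast firing, mostly potassium and sodium channels, gave 0 higher and 6 lower of 19 tested (median -0.28), and 0 and 2 with the length trend removed. Kcnc2, a Kv3 channel that allows brief action potentials, had medians of 319 and 470 CPM and was lower in 16 of 18 pairs (-0.79 ± 0.12, adjusted p = 0.000116; -0.70 with the length trend removed). Kcna2 (-0.70), Kcnc1 (-0.60) and the sodium channel Scn1a (-0.51) were lower as tested, and stood at -0.40, -0.39 and -0.28 without passing once the length trend was removed. Pvalb, which encodes parvalbumin, and Nefh, a heavy neurofilament, did not pass (0.89 ± 0.72 and -0.28 ± 0.17). Of 31 other potassium channel genes, 1 was higher and 5 were lower (0 and 2 with the length trend removed), among them Kcnd2, an A-type channel, which was lower in 17 of 18 pairs (-0.56 ± 0.09). Cacna1g, the T-type calcium channel of burst firing, was lower in 15 of 18 pairs (-0.66 ± 0.14, adjusted p = 0.00167) but not with the length trend removed (-0.43, adjusted p = 0.0903). It was 1 of 3 lower genes among 18 calcium and HCN channels, none of which passed with the length trend removed.

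Modulatory receptors gave 0 higher and 4 lower of 19 tested, and the same numbers with the length trend removed. Adra1b, an alpha-1 adrenergic receptor, had medians of 37.4 and 74.5 CPM and was lower in 17 of 18 pairs (-0.90 ± 0.18, adjusted p = 0.00135). Adrb1, a beta adrenergic receptor (-1.20 ± 0.36), and Chrna4, a nicotinic receptor subunit (-0.66 ± 0.15), were lower in 14 and 16 pairs, and Vipr2 was the fourth. Among GABA and glycine receptor genes 4 of 16 were lower, including both GABA-B subunits Gabbr1 (-0.35) and Gabbr2 (-0.54). After removal of the length trend 1 was higher and 1 lower, the latter being Gabbr2 (-0.40). Kinases and RGS proteins gave 3 higher and 8 lower of 28 (2 and 5 with the length trend removed), matrix genes 0 and 4 of 12 (0 and 2), and transmitter transporters 0 and 2 of 5 (0 and 1).

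Genes of vesicle release were split. Of 36 tested, 4 were higher and 11 lower (median -0.18), against 7.07% and 5.13% of all genes. With the length trend removed, 2 were higher and 4 lower. Complexins moved in opposite directions: Cplx2 had medians of 18 and 5.52 CPM and was higher in 17 of 18 pairs (2.33 ± 0.50, adjusted p = 0.00272), and Cplx1 had medians of 602 and 970 CPM and was lower in 14 (-0.79 ± 0.18, adjusted p = 0.004). Both bind the SNARE complex at release sites. Synaptotagmins were likewise split. Syt1, a fast calcium sensor, was lower in all 18 pairs (-0.50 ± 0.07, adjusted p = 7.28e-05), with ranges of 802 to 2234 and 1554 to 2754 CPM, and Syt5 was higher in 16 (1.26 ± 0.22, adjusted p = 0.00036). Cplx1, Cplx2, Syt1 and Syt5 passed with the length trend removed (-1.06, 2.43, -0.42 and 0.95). Rab3a, a vesicle GTPase (0.31), and the active zone protein Pclo (-0.47) did not, and Rab3a then stood at -0.047.

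Calcium-binding proteins other than the anchors also divided, with 7 higher and 3 lower of 23 tested, against 7.07% and 5.13% of all genes. With the length trend removed these counts were 4 and 4. Nrgn and Caln1, given above, are among the 7 higher genes. Calb1, calbindin, had a median of 1077 CPM (73.1 to 1832) in the Calb2 and 634 CPM (153 to 1239) in the Necab1 sums and was higher in 15 of 18 pairs (0.68 ± 0.15, adjusted p = 0.0029). Vsnl1, a neuronal calcium sensor, was lower in 17 of 18 pairs (-0.68 ± 0.11, adjusted p = 0.000192), and Pcp4, which binds calmodulin, in 15 (-0.72 ± 0.16). The Pcp4 difference was largest in prefrontal sums (-1.90), against -0.69 in auditory, -0.32 in visual and -0.15 in motor sums. It differed between projections (adjusted p = 0.0187 in edgeR's test of that difference). Calm2, a calmodulin gene, was higher in all 18 pairs (0.40 ± 0.05) but stood at 0.03 with the length trend removed. Of 15 neuropeptide and secretory genes, 4 were higher and none lower, against 1 with the length trend removed and 2 without motor replicates 1 and 2. That gene was Bdnf, a neurotrophin, with medians of 71.0 and 35.7 CPM (1.68 ± 0.38, 15 of 18 pairs, adjusted p = 0.00358). Adcyap1, the peptide PACAP, was near the threshold (1.82 ± 0.60, adjusted p = 0.048). Its fold was of like size after the length trend was removed (1.74, adjusted p = 0.0929) and without motor replicates 1 and 2 (1.82, adjusted p = 0.0518), and it missed the threshold in 22 of 34 alternatives.

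Genes that shape synapses and wiring gave 1 higher and 11 lower of 49 tested (median -0.33), but 2 and 0 with the length trend removed. Cbln4, a secreted cerebellin that organizes synapses, was higher in 16 of 18 pairs (2.10 ± 0.54, adjusted p = 0.0106). Ntng1, a netrin-G of thalamic axons, was lower in all 18 pairs by a small amount (-0.29 ± 0.05) that did not pass with the length trend removed (-0.16). Cdh22, a classical cadherin, ranged from 2.92 to 32.4 CPM in the Calb2 sums and from 0 to 12.8 CPM in the Necab1 sums, of which 8 were at 0, and was higher in 16 of 18 pairs (3.43 ± 0.77, adjusted p = 0.0038). It was the 1 higher gene among 22 cadherins, of which 2 were lower, against 7.07% and 5.13% of all genes. Neither lower call was left with the length trend removed (1 higher, 0 lower). Axon guidance genes were called in 2 of 34 cases, both lower, near the 5.13% of all genes. With the length trend removed the list again gave 0 higher and 2 lower. Epha4, a receptor tyrosine kinase of axon guidance, was 1 of them (-0.59 ± 0.12, 17 of 18 pairs).

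Many genes for the machinery of translation and respiration were higher in the Calb2 class, and most of these calls were lost with the length trend removed. Of 85 ribosomal protein genes tested, 44 were higher and none lower (median 0.41), and of 90 nuclear genes of the respiratory chain 35 were higher and none lower (median 0.28). After removal of the length trend these counts were 9 and 0, and 3 and 4, with medians of 0.08 and -0.05. Rpl3, a ribosomal protein, ranged from 701 to 1937 CPM against 180 to 1102 CPM and was higher in all 18 pairs (0.91 ± 0.11, adjusted p = 6.6e-06; 0.60 with the length trend removed). Atp5c1, a subunit of ATP synthase, was also higher in all 18 pairs (0.69 ± 0.08; 0.36 with the length trend removed). Ribosomal protein genes have many near-identical copies, so their UMIs may be split between loci. Respiratory genes on the mitochondrial genome gave 0 higher and 1 lower of 7, and 0 and 5 with the length trend removed. Immediate early genes, which respond to activity and to handling of tissue, gave 0 of 12 in either direction.

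Both classes had the transcripts on a list of 9 relay neuron markers. That list also holds genes of neurons in general (Snap25, Syt1, Rbfox3 and Stmn2). Its sum therefore does not set relay neurons apart from other neurons. The summed level of 9 relay neuron markers was 6963 to 10730 CPM in the Calb2 sums (median 9027) and 9430 to 13425 CPM in the Necab1 sums (median 11192). These list sums are in CPM without the scaling between sums. Of the 9, 1 was higher in the Calb2 class, the growth-associated gene Stmn2 (0.53 ± 0.09), and 6 were lower, among them the vesicular glutamate transporter Slc17a6 (-0.30 ± 0.09). With the length trend removed 1 was higher and 3 were lower, and Slc17a6 missed the threshold (-0.28, adjusted p = 0.0529). Summed markers of inhibitory neurons were 0 to 142 CPM (median 16.2) in the Calb2 and 0 to 39.9 CPM (median 2.30) in the Necab1 sums, with Slc32a1, the vesicular GABA transporter, and Dlx5 at 0 in both. None had enough counts for a test over all pairs. Without motor replicates 1 and 2, 1 was tested and was higher (1.94). In projections tested alone, 1 was tested in auditory (2.97), 1 in prefrontal (3.23) and 1 in visual sums (0.69), and none passed. The summed astrocyte markers were 110 to 527 CPM (median 236) and 206 to 740 CPM (median 441), with Gfap at 0 in both. Most of that was the glutamate transporter Slc1a2 (scaled medians of 210 and 417 CPM), lower in the Calb2 class in all 18 pairs (-0.80 ± 0.09), while the astrocyte genes Aqp4, Gja1 and Slc1a3 had means of 0.177, 0.584 and 2.90 CPM against 1.13, 0.144 and 0.515 CPM. Summed oligodendrocyte markers had medians of 80.7 and 60.2 CPM but reached 2095 CPM in 1 Calb2 sum against 540 CPM in the Necab1 sums, and none of the 3 tested passed. Microglia markers summed to 121 to 270 and 17.3 to 220 CPM, and none of 2 tested passed. Endothelial and mural markers (up to 12.6 and 22.4 CPM) and habenula markers (up to 89.9 and 85.0 CPM) gave no gene with enough counts for a test over all pairs. Within projections, 1 habenula marker was tested in auditory and 2 in prefrontal sums, and none passed. Of the classes, 37 Calb2 and 31 Necab1 class cells held at least 3 markers of another cell type, and 1137 genes passed without such cells.

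For most called genes, the Tnnt1 class lay between the other two. Over the 17 pairs with all 3 classes, the mean of the Tnnt1 sums lay between the means of the Calb2 and the Necab1 sums in 533 of the 780 higher and in 348 of the 566 lower genes. It lay beyond the Necab1 class in 166 and 183 genes, and beyond the Calb2 class in 81 and 35. These counts are a description, because the genes were chosen on the Calb2 and Necab1 sums. Rora and Cplx1 were of the second kind. Rora had means of 1084, 1637 and 2189 CPM in the Calb2, Necab1 and Tnnt1 classes on the scale of the 3 classes, and Cplx1 of 718, 971 and 1720 CPM. Resp18, a secretory granule gene, and Prph ran in the same order in the other direction, with means of 556, 261 and 228 CPM and of 84.6, 2.18 and 0.296 CPM.

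**Figure D4:**
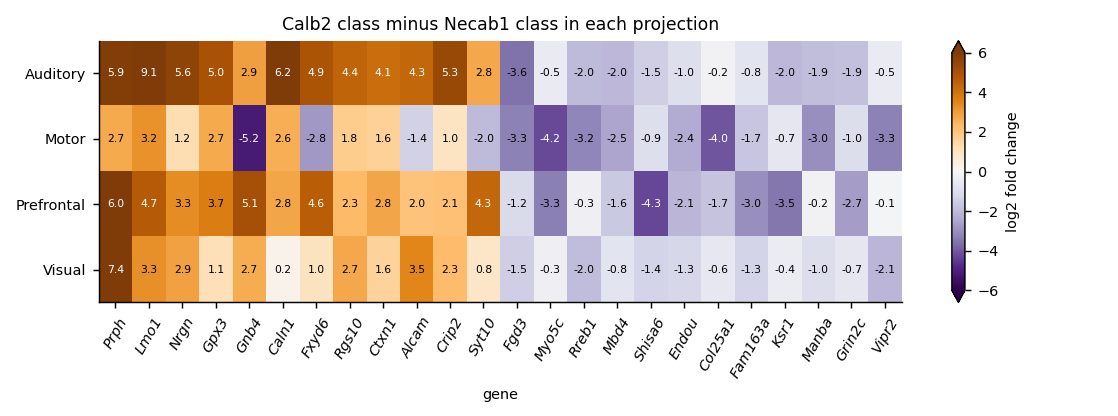
Log2 fold change of the Calb2 class over the Necab1 class in each of 4 projections, for the 24 named genes, from 1 fit of all sums (orange higher, purple lower in the Calb2 class). Most columns keep 1 hue from top to bottom, but the 24 genes were chosen on the same sums. The negative motor values of Gnb4, Fxyd6, Alcam and Syt10 rest on sums at or near 0 CPM and are fitted values, not sizes to read. The same holds for positive values against Necab1 sums at or near 0 CPM. An example is Lmo1 in auditory sums (9.11), where every Necab1 sum was at 0.

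Each projection was then tested alone, with far fewer pairs. Auditory sums gave 17 calls of 9699 genes tested (0.175%), 11 higher (0.113%) and 6 lower (0.0619%). In 1 fit of all sums, which shares the estimate of spread across projections, the auditory difference gave 429 calls (3.89%), 338 higher (3.07%) and 91 lower (0.825%). The median of all genes in auditory sums alone was 0.25. Of 15 neuropeptide and secretory genes tested in auditory sums, 2 were higher, Nts and Cartpt, and none lower. Nts, the peptide neurotensin, was at 108, 202, 165, 269 and 352 CPM in Calb2 replicates 1 to 5 and at 0, 2.76, 44.0, 3.18 and 21.7 CPM in the matching Necab1 sums. The groups did not overlap, and the log2 fold change was 4.56 ± 0.68 (adjusted p = 0.0236). Cartpt, a precursor of CART peptides, was at 30.2, 37.1, 177, 296 and 557 CPM against 0, 1.38, 54.1, 7.94 and 24.4 CPM. Here replicates 1 and 2 of the Calb2 class lay below the highest Necab1 sum, though each pair rose (4.01 ± 0.58, adjusted p = 0.0236). Nrgn was at 91.1, 58.7, 266, 274 and 301 CPM against 0, 1.38, 0, 3.18 and 57.0 CPM (5.25 ± 0.78, adjusted p = 0.0236). Resp18 (1.52 ± 0.21) and Ahi1, a gene of the primary cilium (1.26 ± 0.20), were higher by less. Cplx1 was at 439, 505, 497, 725 and 274 CPM against 852, 904, 1156, 1301 and 874 CPM, with no overlap (-1.12 ± 0.16, adjusted p = 0.0236). Adarb1, an RNA-editing enzyme (-1.03 ± 0.17), Nrxn3 and Rora (-0.73 ± 0.12) were also lower. Only 8 to 13 cells made up each auditory Necab1 sum. Leaving out auditory replicates 1, 2, 3, 4 and 5 in turn gave 0, 2, 11, 0 and 3 calls, and 8 genes passed with the length trend removed. Nrgn, Nts, Cartpt, Cplx1 and Nrxn3 were among them, and Resp18 (1.05), Ahi1 (1.23), Adarb1 (-0.97) and Rora (-0.56) missed the threshold there.

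In motor sums, 17 of 11199 genes passed (0.152%), 7 higher (0.0625%) and 10 lower (0.0893%). In the fit of all sums 55 passed (0.499%), 20 higher (0.181%) and 35 lower (0.317%). The median of all genes in motor sums alone was -0.18. The leading differences were losses in the Calb2 class. Lhx2, a LIM homeobox transcription factor, was at 1.49, 0.289, 0, 0 and 1.34 CPM in the Calb2 sums and at 53.0, 56.6, 45.2, 80.6 and 50.6 CPM in the Necab1 sums. The groups lay far apart, with a log2 fold change of -6.51 ± 0.79 (adjusted p = 0.0127). Col25a1 was at 12.4, 28.0, 30.3, 4.98 and 6.72 CPM against 243, 301, 189, 326 and 256 CPM, without overlap (-4.01 ± 0.40, adjusted p = 0.00284). Rreb1 was at 7.46, 4.33, 17, 4.98 and 26.9 CPM against 55.6, 70.0, 186, 91.8 and 74.6 CPM (-3.14 ± 0.46). Mast4, a kinase, and Lars2, the mitochondrial leucyl-tRNA synthetase, passed on the lower side (-1.81 ± 0.26 and -1.06 ± 0.17). Mast4 and Lars2 missed the threshold with the length trend removed (adjusted p = 0.0851 for both), without motor replicates 1 and 2 (0.174 and 0.147) and without cells holding markers of other types (0.228 and 0.0808). Of the higher genes, Cnih3, an auxiliary subunit of AMPA receptors, was at 123, 29.4, 128, 208 and 134 CPM against 34.3, 15.3, 36.1, 42.6 and 32.6 CPM. The Calb2 sum of replicate 2 lay within the Necab1 range, and the log2 fold change was 1.80 ± 0.29 (adjusted p = 0.0379). Itpa (1.32), Itm2c (1.00) and Rpl3 (0.77) passed as well. After removal of the length trend, 0 motor genes were higher and 6 were lower; Cnih3 stood at 1.80, Itpa at 1.15, Itm2c at 0.93 and Rpl3 at 0.65. Without motor replicates 1 and 2 these 4 missed the threshold too (adjusted p of 0.0825 to 0.264). Ptgds, a prostaglandin synthase that oligodendrocytes also make, passed in all cells (1.61 ± 0.24, adjusted p = 0.0304) but not without cells holding markers of other types (0.84, adjusted p = 0.48) or without motor replicates 1 and 2 (1.24, adjusted p = 0.19). Without motor replicates 1 and 2, on 3 pairs, 6 genes passed, Col25a1 among them (-4.18, adjusted p = 0.0269), while Lhx2 (-7.03, adjusted p = 0.061) and Rreb1 (-2.89, adjusted p = 0.139) missed the threshold. Rreb1 also missed it with the length trend removed (-2.78, adjusted p = 0.0662) and without cells holding markers of other types (-2.66, adjusted p = 0.072). Without those cells Itpa, Itm2c and Rpl3 did not pass either (adjusted p of 0.072 to 0.103). Leaving out motor replicates 1, 2, 3, 4 and 5 in turn gave 4, 12, 6, 2 and 5 calls.

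Prefrontal sums gave 299 calls of 12537 genes tested (2.38%), 157 higher (1.25%) and 142 lower (1.13%). The fit of all sums gave 284 (2.58%), 106 higher (0.961%) and 178 lower (1.61%). Baiap3, which acts in the exocytosis of dense-core vesicles, was at 32.4, 36.9, 41.7 and 46.0 CPM in the 4 Calb2 sums and at 0.819, 0, 0 and 0.227 CPM in the Necab1 sums. The Calb2 values were close to each other and far from the rest (adjusted p = 0.00878); no fold is given against so few counts. Ngb, the oxygen-binding protein neuroglobin, was at 11.6, 18.4, 6.65 and 53.4 CPM in the Calb2 sums and at 0 in all 4 Necab1 sums. Its mean over the Calb2 sums was 111-fold a floor of 3 counts over the pooled Necab1 sums (adjusted p = 0.0374 in edgeR). This ratio leaves out the pairing and the spread between animals, so it is no lower bound for each pair. Vwa5b1 was at 31.9, 49.5, 13.2 and 8.37 CPM against 0 in all 4, with a mean 127-fold the same floor (adjusted p = 0.0269). Parm1 (11.5 to 44.2 CPM) and Fam159b (5.50 to 36.0 CPM) passed as well, and each had 1 Necab1 sum above 0, at 0.536 CPM. Arap2, a GTPase-activating protein, was at 7.72, 9.76, 3.05 and 0 CPM against 133, 142, 92.6 and 54.4 CPM, with no overlap (-4.52 ± 0.52, adjusted p = 0.00415). Shisa6 was at 0.386, 0.311, 6.24 and 10.5 CPM against 44.2, 22.5, 76.1 and 30.4 CPM (-4.33 ± 0.97, adjusted p = 0.0482). Adarb2, a relative of the RNA-editing enzymes (-3.76 ± 0.55), Slc9a3r1, a scaffold beneath the membrane (-3.51 ± 0.55), and Rbms3, an RNA-binding protein (-2.69 ± 0.40), were lower too. Leaving out prefrontal replicates 1, 2, 3 and 4 in turn gave 145, 119, 16 and 187 calls, and 82 genes passed with the length trend removed. Ngb (adjusted p = 0.0617), Fam159b (0.061) and Shisa6 (-4.03, 0.108) were not among the 82, nor did they pass without cells holding markers of other types (0.0577 to 0.0634). Shisa6 missed the threshold in 8 of 16 alternatives. Without prefrontal replicate 3, none of the 10 genes named here passed (adjusted p of 0.0574 to 0.294). The habenula marker Gpr151 stood at 63.6 ± 23.6 CPM in the prefrontal Calb2 and at 7.09 ± 9.61 CPM in the Necab1 sums (mean ± SD, n = 4), with the larger value in the Calb2 class in 4 of 4 pairs, but did not pass (3.90 ± 1.1, adjusted p = 0.113 in edgeR). Gpr151 was 1 of 2 habenula markers, of 10 listed, with enough counts for a test in prefrontal sums. The 2 had a median log2 fold change of 2.38, and neither passed. The part of habenula transcripts in the prefrontal differences was not tested.

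Visual sums gave 0 of 10953 genes in edgeR (0%), with 1199 genes at an unadjusted p under 0.05 and 259 calls in DESeq2. Without visual replicate 1, edgeR gave 3 calls. Of the leading genes over all projections, some had large differences in visual sums, such as Alcam (3.53), and others small ones, such as Caln1 (0.14) and Myo5c (-0.44), and none passed. Lmo1 was at 46.3, 49.6, 39.3 and 47.5 CPM in the Calb2 and at 16.9, 0.699, 24.3 and 0.525 CPM in the Necab1 sums, without overlap (2.88 ± 0.90, adjusted p = 0.3). Prph was at 0, 236, 85.1 and 490 CPM against 0.767, 0, 0 and 1.57 CPM, and the first pair went against the others. Somatosensory cells were not tested, since none of the 3 animals had the 5 Calb2 class cells required for a sum; 5 Calb2 and 35 Necab1 class cells were added up over the animals. Prph was at 472 CPM in those 5 cells (289 UMIs, exact 95% Poisson interval 419 to 530) and had no UMI in the 35. Rora stood at 923 CPM (848 to 1002) and 1315 CPM (1280 to 1350). Rpl3 was at 627 CPM (566 to 693) and 597 CPM (573 to 621). Lmo1 (42.5 and 9.45 CPM) and Crip2 (53.9 and 13.8 CPM) kept the direction found over all pairs. Fgd3, called lower over all pairs, was higher here, at 60.4 CPM (42.5 to 83.3) and 9.45 CPM (6.72 to 12.9). Rgs10, called higher there, had no UMI in the 5 cells (up to 6.02 CPM) and was at 27.4 CPM (22.6 to 32.9) in the 35. Gpx3, Caln1, Fxyd6, Alcam and Syt10 had no UMI in the 5 cells, and were at 0 to 5.09 CPM in the 35. These intervals cover counting error only.

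The differences of separate projections were only partly alike. Across 9146 to 9455 genes that were tested in both projections of a pair and had a mean of at least 10 CPM, Pearson's r of the log2 fold changes was 0.33 for auditory with prefrontal, 0.32 for prefrontal with visual, 0.26 for auditory with visual, 0.24 for motor with visual, 0.22 for motor with prefrontal and 0.11 for auditory with motor. Genes are not independent replicates, and the gradient with transcript length is present in each projection. In the fit of all sums, 96 genes were called in both auditory and prefrontal sums, 22.4% of the auditory and 33.8% of the prefrontal calls, and all 96 had the same direction. Auditory and motor sums shared 15 calls (3.5% and 27.3%), 14 in the same direction, and motor and prefrontal sums 14 (25.5% and 4.93%), 13 in the same direction.

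A test of the difference between projections found 15 of 11025 genes (0.136%) whose class difference was not the same in all 4, 14 without motor replicates 1 and 2 and 20 with the length trend removed. Where each sum had to hold 10 or more cells, 1 gene passed, Nrxn3 (adjusted p = 0.0232); Lhx2, Col25a1, Arap2, Prkcd, Ptk2b and Syn2 then had adjusted p-values of 0.0509 to 0.0949. Without prefrontal replicate 1, and without prefrontal replicate 2, 9 genes passed. Every visual pair was of sequencing batch 3, so where visual sums depart from the others, projection and batch cannot be told apart. Lhx2 and Col25a1 had their largest difference in motor neurons. Lhx2 stood at -6.46 in motor sums, against -0.40 in auditory, 0.24 in prefrontal and -0.61 in visual sums (adjusted p of the difference between projections 0.000699). For Col25a1 the values were -4.03 in motor, -1.74 in prefrontal, -0.61 in visual and -0.22 in auditory sums (0.000239). Arap2, Prkcd and Ptk2b had their largest difference in prefrontal neurons. Prkcd, protein kinase C delta, a marker of first-order relay neurons, was at 73.6, 62.7, 295 and 273 CPM in the prefrontal Calb2 and at 697, 560, 1499 and 693 CPM in the Necab1 sums (-2.53 in the fit of all sums), without overlap. In motor sums it was at 1534 to 1950 CPM and 1269 to 2087 CPM (0.14; difference between projections 0.00021). Ptk2b, a calcium-activated tyrosine kinase, differed by -2.04 in prefrontal and by -0.32 to 0.41 in the other sums (0.00216). Arap2 differed by -4.48 in prefrontal and by -0.81 to -0.02 elsewhere (0.000597).

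Nrxn3, a presynaptic neurexin, was lower in the Calb2 class of auditory (-1.01) and prefrontal (-1.99) sums, -0.41 in visual and 0.41 in motor sums (difference between projections 1.49e-05). Its motor values were 476, 392, 830, 587 and 659 CPM against 404, 350, 482, 530 and 395 CPM, higher in all 5 pairs but not called (adjusted p = 0.316 in motor alone). Syn2, a synapsin that tethers synaptic vesicles, was lower in the motor Calb2 class at 229, 108, 119, 148 and 41.7 CPM against 304, 305, 447, 429 and 289 CPM, without overlap (-1.58 in the fit of all sums). It differed by -1.21 in visual sums and by 0.38 in both auditory and prefrontal sums (0.00337).

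**Figure D5:**
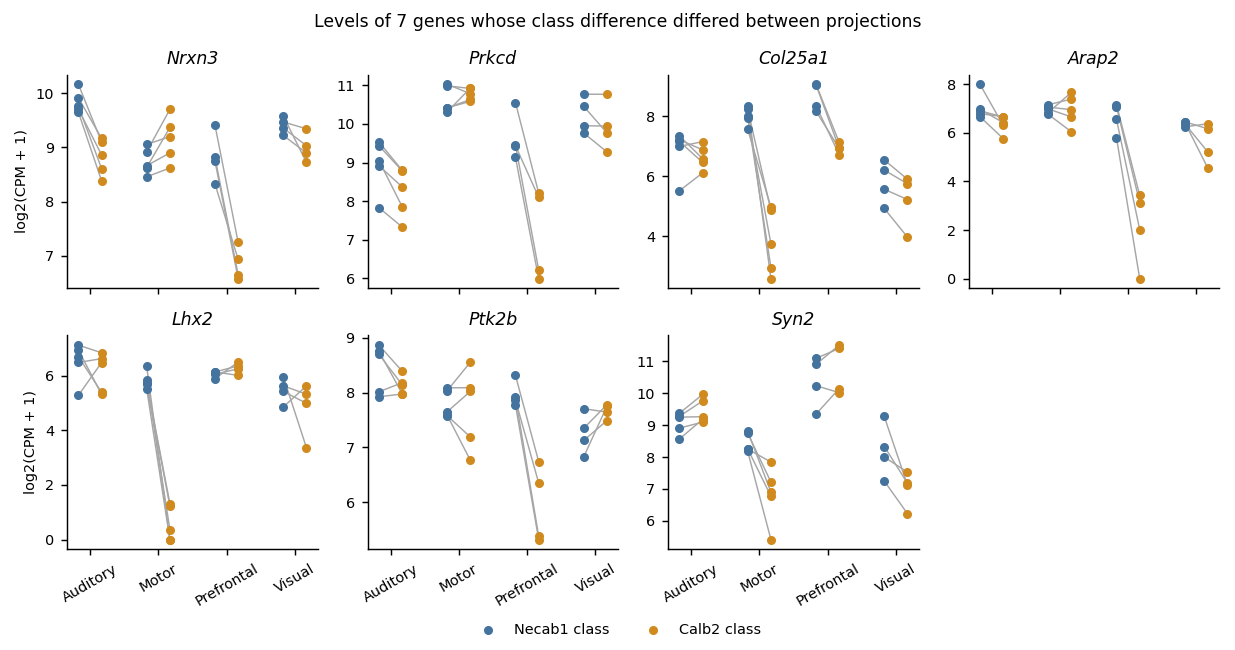
Levels of 7 genes whose class difference differed between projections, as log2(CPM + 1) in every sum, with a line for each pair (blue Necab1 class, orange Calb2 class). Lhx2 falls steeply in all 5 motor pairs, Arap2, Prkcd and Ptk2b fall most in prefrontal pairs, and Nrxn3 falls in auditory and prefrontal pairs but not in motor pairs.

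In GRCm38 (mm10) with GENCODE vM21, Prph lies on chromosome 15, 99055174 to 99058978, plus strand, Lmo1 on chromosome 7, 109138572 to 109175207, minus strand, and Nrgn on chromosome 9, 37544492 to 37552904, minus strand. Rreb1 lies on chromosome 13, 37778400 to 37952005, plus strand, Lhx2 on chromosome 2, 38339281 to 38369733, plus strand, and Col25a1 on chromosome 3, 130131501 to 130599877, plus strand. Each is annotated as a protein-coding gene, and the counts are for the whole gene.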

How the data were processed

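Single cells of 26 plates were sequenced as 3' libraries with UMIs, per the labels' protocols. The submitters' processing notes name STAR 2.5.3, cutadapt 1.16, Picard 1.12 and the build mm10. Which annotation and strand rule the counting used is not given in the sources used here; overlapping genes and near-identical copies may therefore share UMIs. The counts the authors deposited are raw UMIs of each gene in each cell. Projection, animal and cluster come from their cell table. No cell filter or doublet caller was applied, since cells were picked by hand. The cell table flags 20 cells as ODC, a term it does not explain. Of these, 7 were of the Calb2 and 6 of the Necab1 class, and they were kept. Without flagged cells, 1323 genes passed over all pairs, and the median log2 fold change of the 3 oligodendrocyte markers tested was -0.07 in place of 0.41.

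Counts were summed per animal, projection and class and tested in R 4.3.3 using edgeR 4.0.16, with TMM factors of 0.932 to 1.07, filterByExpr, trended dispersion, glmQLFit and glmQLFTest, animal and projection as 1 block, Benjamini-Hochberg at 0.05 over all genes tested (17 residual degrees of freedom, 3 or 4 within a projection). Pairing is by animal, as both classes come from the same mice. The test was checked on simulated data. DESeq2 1.42.0 was 1 alternative. Named genes were the 12 largest folds in each direction at a mean of at least 10 CPM (5 per projection, 8 for the difference between projections), without nameless gene models, plus list members; some results that the rule names are not reported here. The classes and the 27 gene lists were chosen with earlier results of these data known. Transcript length was removed as a lowess trend (span 0.5) of each sum. Results for depth rest on exact sign flips over the 18 pairs.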

Additional observations from a re-analysis of the deposited data

Results flagged for a closer look

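In all, 120 groups of pairs were checked (30 genes that lead a comparison or differ between projections, in 4 projections). Of these, 11 held a pair whose log2(CPM + 1) difference stood far from the rest. Chance gives about 1 in 20 where values spread normally, which does not hold for groups at or near 0 CPM. For Prph, visual replicate 1 stood at -0.821, against 6.43 to 7.89 in the other visual pairs. Nrgn stood at 2.69 in motor replicate 3 (others -0.39 to 0.0999) and at 1.09 in prefrontal replicate 1 (others 2.5 to 2.72). Among motor pairs, Gpx3 was at 2.56 in replicate 5, Gnb4 at -2.36 in replicate 2, Caln1 at 2.69 in replicate 1, Syt10 at -0.843 in replicate 3 and Fgd3 at 0.302 in replicate 5. The other motor pairs lay at 0 for Syt10, at 0 to 0.201 for Caln1 and at -0.383 to 0 for Gnb4. In such groups a few counts can set a pair apart. Fam163a was at -2.45 in auditory replicate 2, Manba at -0.653 in prefrontal replicate 3 and Nrxn3 at -1.39 in prefrontal replicate 4, where the other 3 pairs were at -2.17 to -2.16.

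The class difference itself differed between projections for some genes, in edgeR's test of that difference with Benjamini-Hochberg adjustment. Those reported with the smallest adjusted p-values were Nrxn3 (adjusted p = 1.49e-05), Prkcd (0.00021), Col25a1 (0.000239), Arap2 (0.000597), Lhx2 (0.000699), Ptk2b (0.00216) and Syn2 (0.00337).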

How the results depend on the processing

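Of the results over all pairs, UMIs and genes per cell passed with the mean in place of the median (0.25) and without thinning (0.0871). The 1346 calls became 2301 in DESeq2, 536 with the length trend removed, and 2, 1 and 203 in batches 1, 2 and 3 alone; the counts under the other settings lay between 904 and 1507, and leaving out each pair in turn gave 1087 to 1421. The block of animal and projection mattered most within a projection. With no replicate block, all pairs gave 1446 calls, auditory sums 0, motor sums 4 and prefrontal sums 56. Auditory calls became 364 in DESeq2, 243 with no filter, 35 with thinned cells, 8 with the length trend removed and 429 in the fit of all sums (0 to 11 leaving out a replicate). Motor calls became 405 in DESeq2, 101 with no filter, 6 where the leading anchor had at least 2 times the UMIs of the next, 0 with 10 or more cells per sum, 115 with thinned cells, 6 without cells with markers of other types, 6 with the length trend removed, 6 without motor replicates 1 and 2 and 55 in the fit of all sums (2 to 12 leaving out a replicate). Prefrontal calls became 1076 in DESeq2, 680 with no filter, 144 for the stricter anchor lead, 583 with thinned cells, 193 without cells with markers of other types and 82 with the length trend removed (16 to 187). Visual calls became 259 in DESeq2, 139 with no filter and 10 with thinned cells (0 to 3). The 15 genes that differed between projections became 138 in DESeq2, 138 with no filter, 31 with thinned cells and 1 with 10 or more cells per sum (9 to 21). Scg5 and Rab3a turned to -0.016 and -0.047 with the length trend removed; no other called gene that is named changed direction under any setting run. A gene that did not pass within 1 projection cannot be called equal. The cause was not tested.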
